A study of Homo sapiens with 4 samples.

Results

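Glycolysis and hypoxia response genes were examined in ATO-treated and negative control (NC) hepatocellular carcinoma cells. The genes were taken from a list of 39, which covers the glucose carriers, the glycolytic enzymes, regulators of glycolytic flux and targets of the hypoxia-inducible factors. Of these, 37 were measured here, out of 19775 genes in all, and the other two were not analysed here. Each gene was read from its brightest probe set, by the mean over the 4 profiles, among the probe sets that name that gene alone. The measured genes comprised 16 glycolytic enzymes, 6 carriers and flux regulators and 15 genes that answer to hypoxia without acting in glycolysis, called hypoxia-only genes here. The arrays were Affymetrix Human Genome U133 Plus 2.0, which read each transcript through sets of short probes.

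The 4 groups were ATO-treated Huh7 cells, NC Huh7 cells, ATO-treated Hep3B cells and NC Hep3B cells, with 1 profile each. Huh7 and Hep3B are established human hepatocellular carcinoma lines. ATO is arsenic trioxide, an arsenic compound used against leukemia, and was given at 3 μM for 7 days. The NC cells received DMSO, the solvent. No labelled group was exposed to hypoxia. A single profile per condition and line gives a ratio no error of its own. The 2 lines therefore served as the replicates of the treatment. A p-value for ATO rests on the spread between them, which the fit drew toward the spread over all genes.

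Glycolysis splits glucose into pyruvate in the cytosol, and lactate dehydrogenase turns the pyruvate into lactate. Tumor cells, those of liver among them, often run this pathway at a high rate even where oxygen is present. Hypoxia-inducible factors (HIF) are made of an oxygen-labile alpha subunit and the stable partner ARNT. When oxygen is present, prolyl hydroxylases of the EGLN family mark the alpha subunit for destruction through VHL. When oxygen is short the alpha subunit persists, and HIF binds a short DNA motif near its targets, which include many glycolysis genes.

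The values are intensities on a linear scale, and probe sets had a median mean intensity of 17.3, below which a value is called dim here. All 12 hepatocyte markers measured lay above that median in all 4 profiles, but ALB, AFP, TTR and APOH were far dimmer in Huh7 than in Hep3B. Of the 12, 3 were higher in Huh7 over both treatments, FGB, FGG and SERPINA1. FGB, for one, had 1012 in NC in Huh7 and 210 in NC in Hep3B. ALB had 358 with ATO and 155 in NC in Huh7, and 10729.9 with ATO and 12803 in NC in Hep3B. AFP had 62.1 with ATO and 91.8 in NC in Huh7, and 1646 with ATO and 3567 in NC in Hep3B. Huh7 cells are known to make albumin and AFP, so the dim ALB, AFP and TTR go against what is known of the line, and Huh7 in the following means the profiles labelled so. Of 11 markers of leukocytes, endothelium and fibroblasts, 4 had a mean above the median, LYZ being the brightest. Their summed intensity was 445 with ATO and 616 in NC in Huh7, and 226 with ATO and 393 in NC in Hep3B. The part of these markers in the ratios below was not tested. Over all genes the log2 ratios of ATO over NC had medians of 0.01 (Huh7) and 0.04 (Hep3B). In a whole culture, fewer cells that express a gene and less of its RNA per cell cannot be told apart.

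MIR210HG and PFKFB4 were the 2 members below a ratio of 0.67 in both lines, and no member was above 1.5 in both. MIR210HG is the noncoding host transcript of the hypoxia-induced microRNA miR-210. Its intensity was 101 with ATO and 258 in NC in Huh7, and 38.7 with ATO and 104 in NC in Hep3B. Within each line the ATO profile was the lower one, whereas across lines the ATO value of Huh7 and the NC value of Hep3B were close together. The ratio was 0.389 in Huh7 and 0.372 in Hep3B, and the log2 ratios averaged -1.40 ± 0.05 (SD, n = 2 lines). A second, dimmer probe set of MIR210HG had ratios of 0.551 and 0.571. PFKFB4 makes and breaks fructose 2,6-bisphosphate, the signal that sets the pace of phosphofructokinase. Its intensity was 259 with ATO and 546 in NC in Huh7, and 132 with ATO and 259 in NC in Hep3B. The ratios were 0.475 and 0.509, and the log2 ratios averaged -1.02 ± 0.07 (SD, n = 2 lines). With the geometric mean of both its probe sets, the second of which was dimmer than the median in all profiles but 1, PFKFB4 was within the thresholds at 0.715 and 0.732. Over all genes, 0.587% were below 0.67 in both lines and 0.804% were above 1.5 in both, 1.39% together. No member was past the thresholds in opposite directions, where 0.324% of all genes were. In all, 8 of the 37 members were past a threshold in Huh7, beside 6.46% of all genes, and 10 were in Hep3B, beside 9.05%. All genes include many dim ones. Of the 7794 genes with a mean intensity of at least 100, 254 were below 0.67 in Huh7, 421 in Hep3B and 65 in both. Above 1.5 were 256 in Huh7, 456 in Hep3B and 96 in both.

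PDK1, a kinase that switches off pyruvate dehydrogenase, lay close to the same threshold. Its intensity was 310.2 with ATO and 449 in NC in Huh7, and 217 with ATO and 362 in NC in Hep3B. The ratios were 0.690 in Huh7 and 0.598 in Hep3B, so Hep3B alone was past 0.67. All 3 of its probe sets were lower with ATO in both lines, and their geometric mean gave 0.634 and 0.570.

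No member had an adjusted p under 0.05 for ATO from limma, fitted over all genes to log2(intensity + 16) with treatment and cell line as terms and adjusted by Benjamini-Hochberg. No gene at all passed, 0% of 19775, and the smallest adjusted p of a member was 0.506. On this scale the estimate was -1.19 ± 0.07 (SE) for MIR210HG, -0.96 ± 0.07 for PFKFB4 and -0.61 ± 0.08 for PDK1, each with an adjusted p of 0.506 from limma. At an unadjusted p under 0.05, limma gave 10 of the 37 members, 8 lower and 2 higher, and 9.54% of all genes, 4.3% being lower. The 8 lower ones were MIR210HG, PFKFB4, PDK1, ALDOC, KDM3A, LDHA, EGLN1 and BNIP3, and the 2 higher ones were PFKFB3 and P4HA2. When limma's prior followed an intensity trend, 0 members and 9 genes over all had an adjusted p under 0.05.

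**Figure D1:**
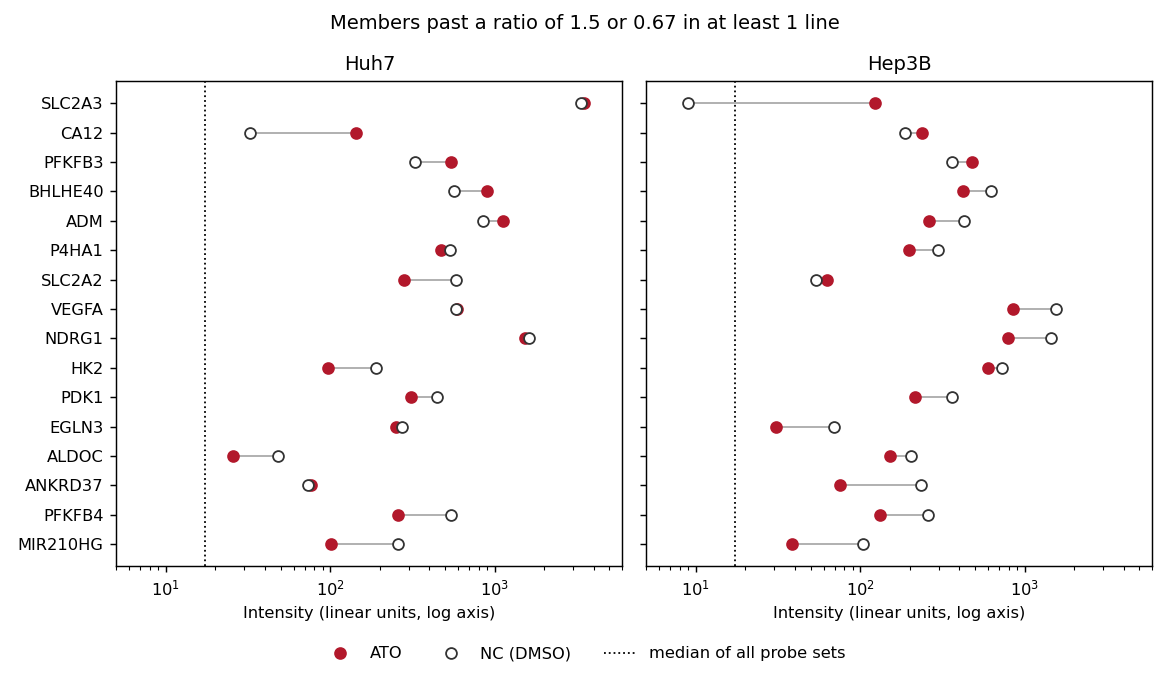
Intensity (x axis, linear units on a log axis) of the 16 members whose ATO over NC ratio was past 1.5 or 0.67 in at least 1 line, in Huh7 (left) and Hep3B (right). Filled points are ATO profiles, open points NC profiles and the dotted line is the median of all probe sets, 17.3, and MIR210HG and PFKFB4 lie to the left of their NC point by a similar distance in both panels.

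The promoters of these 3 genes, of ANKRD37, the hypoxia-only gene with the lowest ratio in Hep3B, and of GAPDH, whose ratio was close to 1 in both lines, are shown because HIF acts through motifs in such regions. Each window runs from 250 bases before to 50 bases after the gene's start, on build GRCh38.p14 from RefSeq, read 5′ to 3′ on the gene's strand. The capitals mark ACGTG or GCGTG, the core of the HIF motif, on the strand shown or on the other strand, where they read CACGT or CACGC. The windows are chr11:568408-568707 on the minus strand for MIR210HG, chr3:48556754-48557053 on the minus strand for PFKFB4, chr2:172555840-172556139 on the plus strand for PDK1, chr4:185396591-185396890 on the plus strand for ANKRD37 and chr12:6535014-6535313 on the plus strand for GAPDH. For PDK1, which has 2 windows, the one that holds the motif is printed.
MIR210HG: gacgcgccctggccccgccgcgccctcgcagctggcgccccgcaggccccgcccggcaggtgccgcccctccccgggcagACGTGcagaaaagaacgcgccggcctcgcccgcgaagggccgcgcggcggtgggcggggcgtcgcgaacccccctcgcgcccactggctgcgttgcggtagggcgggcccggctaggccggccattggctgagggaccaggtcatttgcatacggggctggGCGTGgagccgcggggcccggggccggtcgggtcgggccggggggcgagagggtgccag
PFKFB4: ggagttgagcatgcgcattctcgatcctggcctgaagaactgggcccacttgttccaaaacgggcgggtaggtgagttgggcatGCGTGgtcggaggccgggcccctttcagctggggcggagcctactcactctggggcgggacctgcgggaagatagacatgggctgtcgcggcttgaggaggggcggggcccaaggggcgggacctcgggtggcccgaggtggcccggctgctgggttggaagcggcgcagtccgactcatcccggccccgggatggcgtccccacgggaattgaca
PDK1: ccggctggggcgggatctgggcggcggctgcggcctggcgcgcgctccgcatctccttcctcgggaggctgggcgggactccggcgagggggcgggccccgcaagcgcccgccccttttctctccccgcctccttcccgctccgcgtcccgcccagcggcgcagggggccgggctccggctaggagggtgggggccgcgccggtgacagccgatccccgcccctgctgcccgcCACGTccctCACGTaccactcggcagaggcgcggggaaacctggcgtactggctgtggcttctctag
ANKRD37: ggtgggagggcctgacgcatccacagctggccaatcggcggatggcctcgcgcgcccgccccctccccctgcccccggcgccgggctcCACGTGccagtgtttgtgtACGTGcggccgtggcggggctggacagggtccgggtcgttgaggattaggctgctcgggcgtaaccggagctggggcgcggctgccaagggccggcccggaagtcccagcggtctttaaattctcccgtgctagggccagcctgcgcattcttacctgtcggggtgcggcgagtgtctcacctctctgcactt
GAPDH: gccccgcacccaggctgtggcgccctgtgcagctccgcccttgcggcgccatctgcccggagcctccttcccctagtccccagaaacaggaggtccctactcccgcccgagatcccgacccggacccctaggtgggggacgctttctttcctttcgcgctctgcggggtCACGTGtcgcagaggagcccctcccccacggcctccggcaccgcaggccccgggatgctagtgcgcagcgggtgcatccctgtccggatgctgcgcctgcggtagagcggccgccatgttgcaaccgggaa

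The PDK1 window carries a pair of CACGT runs just before the gene's start, and the ANKRD37 window holds CACGTG followed by ACGTG. The MIR210HG window holds ACGTG and GCGTG, the PFKFB4 window holds GCGTG alone and the GAPDH window holds CACGTG. The run CACGTG reads as ACGTG on both strands and is also the E-box bound by MYC and by BHLHE40.

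Of the 37 measured members, 32 had at least 1 such window, 55 windows in all, and in 28 of the 32 genes a window held ACGTG or GCGTG. Over all 27305 genes with a window the share was 52.4%. Counted by windows, 67.3% of the members' windows and 48.4% of all 35116 windows held the motif. It was found in 15 of 16 glycolytic enzymes, whose ratios were mostly near 1, and in 9 of 11 hypoxia-only genes. The enzymes had 36 windows and the hypoxia-only genes 12, and by windows the shares were 61.1% and 83.3%. The order of these groups thus depends on the unit counted. EGLN3, which was below 0.67 in Hep3B, had none in its window. A match of letters is a description only, and binding was not measured.

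Most glycolytic enzymes differed little between ATO-treated and NC cells, as did most genes. Of the 16 enzymes, 14 were within the thresholds in Huh7 and all 16 in Hep3B. Over all genes, 6.46% were past either threshold in Huh7 and 9.05% in Hep3B. GAPDH, the enzyme that oxidizes glyceraldehyde 3-phosphate and a common loading control, had intensities of 12370.5 with ATO and 12433 in NC in Huh7, and 9581 with ATO and 10119 in NC in Hep3B. Its ratios were 0.995 and 0.947, and all 6 of its probe sets were below a ratio of 1 in both lines. GAPDH was also the study's own reference for RT-qPCR. The GAPDH control probe sets for the 3′ and the 5′ end of the transcript, which read RNA integrity, differed by a log2 of 0.17 with ATO and 0.14 in NC in Huh7, and by 0.27 with ATO and 0.25 in NC in Hep3B. Ratios of PKM, the kinase of the last step, were 1.03 and 1.003, and ALDOA, the main aldolase outside liver, was at 0.977 and 1.04. ENO1, the enolase, was at 0.904 and 1.001, PFKM, a phosphofructokinase of muscle, at 1.02 and 0.988, and GPI, the isomerase that follows hexokinase, at 0.915 and 1.03.

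HK2 and ALDOC were the enzymes below 0.67, both in Huh7 alone. HK2, the inducible hexokinase that traps glucose in the cell, had intensities of 96.6 with ATO and 191 in NC in Huh7, and 597 with ATO and 728 in NC in Hep3B. By this probe set the ATO value was the lower one in both lines, with ratios of 0.507 and 0.820. Of its other probe sets, both dimmer, one was at 0.768 in Huh7 but 1.68 in Hep3B, and the other was at 1.25 and 1.31, so the call rests on the brightest. The geometric mean of the 3 was 0.787 in Huh7 and 1.22 in Hep3B, where it turned the direction. ALDOC, an aldolase best known from brain, had intensities of 25.5 with ATO and 48.4 in NC in Huh7, and 152 with ATO and 204 in NC in Hep3B. Its ratios were 0.526 and 0.745, from a single probe set. Over all genes, 3.25% were below 0.67 in Huh7 and 4.02% in Hep3B.

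LDHA, which makes lactate, and PGK1, the first enzyme to yield ATP in the pathway, were slightly lower with ATO in both lines. LDHA had intensities of 7004 with ATO and 8495 in NC in Huh7, and 5502 with ATO and 7105 in NC in Hep3B, with ratios of 0.825 and 0.774. The ratios of PGK1 were 0.933 and 0.787. TPI1, at 0.843 and 0.923, and HK1, the constitutive hexokinase, at 0.923 and 0.718, were below 1 in both lines too. The second probe set of TPI1, nearly as bright, was at 0.875 and 1.12, so its direction in Hep3B rests on the probe set. PGAM1, a phosphoglycerate mutase, was at 0.839 and 1.12, PFKL, the liver phosphofructokinase, at 0.857 and 1.07, and PFKP, the platelet form, at 1.38 and 1.04. ENO2, the neuronal enolase, was at 1.30 and 0.856, the Huh7 ratio resting on dim values. In all, 7 enzymes were below 1 in both lines, 2 were above 1 in both and 7 differed in direction. Over all 19775 genes, 4887 (24.7%) were below 1 in both, 6332 were above 1 in both and 8556 were neither. The count of enzymes below 1 in both lay between 6 and 9 under the other probe set rules and normalizations. Of the 20 members with at least 2 probe sets above the median, 14 had all of them in 1 direction in Huh7, and 14 in Hep3B.

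Carriers and flux regulators had ratios between 0.475 and 1.66 in Huh7 and between 0.509 and 13.7 in Hep3B. SLC2A3, a glucose carrier of high affinity, had intensities of 3477 with ATO and 3357 in NC in Huh7, and 122 with ATO and 8.96 in NC in Hep3B. The Hep3B value in NC was dim, so the ratio of 13.7 there has no firm size. It was 7.09 with that value raised to the median, 4.02 with the geometric mean of its probe sets, and the other two probe sets gave 2.54 and 1.87. The Huh7 ratio of SLC2A3 was 1.04. SLC2A2, the glucose carrier of hepatocytes, went the other way in Huh7, with 281 with ATO and 586 in NC, a ratio of 0.479. In Hep3B it had 63.3 with ATO and 54.1 in NC, a ratio of 1.17. SLC2A1, the carrier most tied to hypoxia, was at 0.817 and 0.934.

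PFKFB3, which makes the same fructose bisphosphate signal as PFKFB4, had the opposite direction to PFKFB4 in both lines. Its intensity was 545 with ATO and 328 in NC in Huh7, and 479 with ATO and 363 in NC in Hep3B. The ATO profile was the brighter one in each line, with ratios of 1.66 and 1.32, and the log2 ratios averaged 0.57 ± 0.23 (SD, n = 2 lines). The limma estimate was 0.55 ± 0.11 (SE), with a limma adjusted p of 0.506. Above 1.5, 3.21% of all genes were found in Huh7 and 5.04% in Hep3B, beside 3 and 1 of the 37 members.

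**Figure D2:**
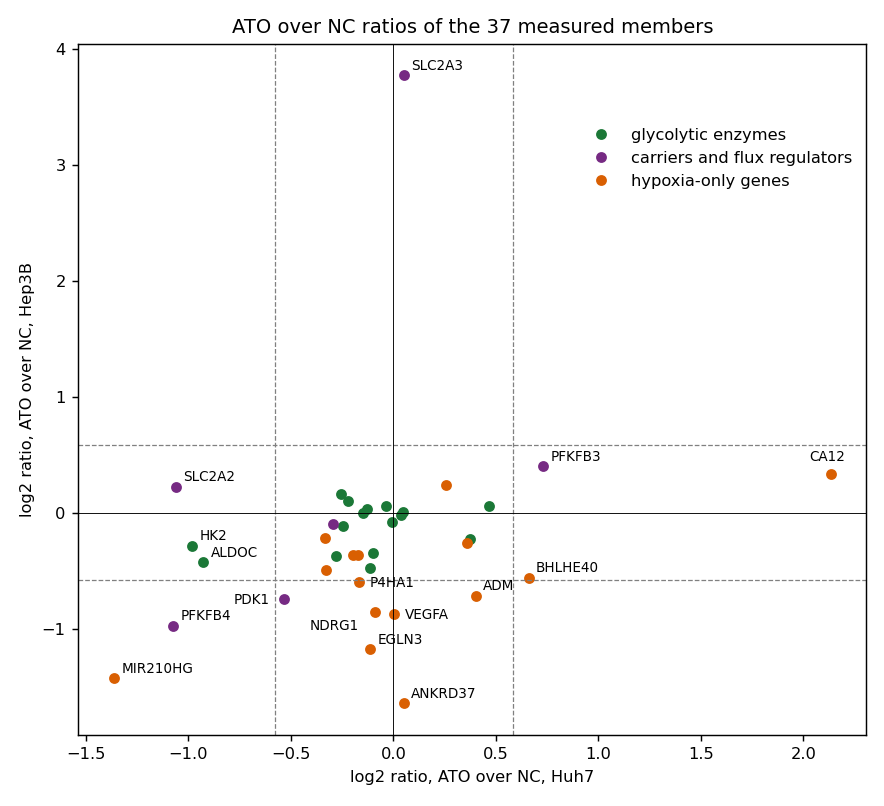
Log2 ratio of ATO over NC in Huh7 (x axis) against Hep3B (y axis), 1 point for each of the 37 measured members, colored by group, with names for those past a threshold in at least 1 line. Dashed lines mark ratios of 1.5 and 0.67, MIR210HG and PFKFB4 are in the corner below both, and 6 orange hypoxia-only genes lie below the lower line of Hep3B alone.

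The hypoxia-only genes were lower with ATO in Hep3B but not as a group in Huh7. In Hep3B, 13 of 15 had a ratio under 1 and 7 were below 0.67, beside 4.02% of all genes, whereas in Huh7 8 of 15 were under 1 and 1 was below 0.67, beside 3.25% of all genes. Over all genes, 43.7% had a ratio under 1 in Hep3B and 48.8% in Huh7. Of the 7794 genes with a mean intensity of at least 100, 421 were below 0.67 in Hep3B and 254 in Huh7. The hypoxia-only group had log2 ratios with a median of -0.56 in Hep3B and -0.09 in Huh7. The ratio was lower in Hep3B than in Huh7 for 14 of the 15, EGLN1 being the exception, where 46.3% of all genes had the lower ratio in Hep3B. The median difference between the lines was -0.62 (log2, Hep3B minus Huh7), and 0.03 over all genes. With 1 profile per condition and line, this difference between lines could not be tested. The hepatocyte markers had a median log2 ratio of -0.38 in Hep3B and -0.15 in Huh7, with the lower ratio in Hep3B for 9 of 12. The markers of leukocytes, endothelium and fibroblasts had -0.14 and -0.11, with the lower ratio in Hep3B for 8 of 11, and the part of either list in the result was not tested.

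ANKRD37, a small ankyrin repeat protein and a direct HIF target, had the lowest ratio of the group in Hep3B. Its intensity was 75.0 with ATO and 234 in NC in Hep3B, and 76.3 with ATO and 73.7 in NC in Huh7. The Hep3B NC value thus stood above the other 3 profiles, which were nearly equal, and the ratios were 0.320 in Hep3B and 1.03 in Huh7. EGLN3, the prolyl hydroxylase that HIF induces as its own brake, had 30.7 with ATO and 69.4 in NC in Hep3B, a ratio of 0.442, and 252 with ATO and 272 in NC in Huh7, a ratio of 0.925. Its other probe set was lower in both lines, at 0.325 and 0.658. EGLN1, the main oxygen sensor of the family, was closer to its control, at 0.859 in Hep3B and 0.793 in Huh7.

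NDRG1, a stress protein of differentiation, and VEGFA, the growth factor of blood vessels, had similar ratios in Hep3B. NDRG1 had 797 with ATO and 1441 in NC in Hep3B, a ratio of 0.553, and 1531 with ATO and 1629.9 in NC in Huh7, a ratio of 0.940. VEGFA had 853 with ATO and 1561 in NC in Hep3B, a ratio of 0.547, and 587 with ATO and 585 in NC in Huh7, a ratio of 1.003. In both genes the ATO profile was clearly the dimmer one in Hep3B, and the Huh7 pair hardly differed. The other 3 probe sets of VEGFA were below 1 in Hep3B as well, at 0.830, 0.883 and 0.659, and the geometric mean of all 4 was 0.717. P4HA1, a prolyl hydroxylase of collagen, had 197 with ATO and 298 in NC in Hep3B, a ratio of 0.663, and 474 with ATO and 533 in NC in Huh7, a ratio of 0.891. With the geometric mean of its probe sets P4HA1 was at 0.935 in Hep3B, the second of them being far dimmer than the median. Its relative P4HA2 was above 1 in both lines, at 1.18 in Hep3B and 1.19 in Huh7, though at 0.882 in Huh7 with the geometric mean of its probe sets.

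ADM, BHLHE40 and HILPDA had opposite directions in the 2 lines. ADM, the vessel-dilating peptide adrenomedullin, had 262 with ATO and 429.5 in NC in Hep3B, a ratio of 0.609, and 1124 with ATO and 850.5 in NC in Huh7, a ratio of 1.32. BHLHE40, a repressor of the circadian and hypoxia response, had 424 with ATO and 625 in NC in Hep3B, a ratio of 0.679, and 894 with ATO and 566 in NC in Huh7, a ratio of 1.58. HILPDA, a lipid droplet protein, had ratios of 0.833 in Hep3B and 1.28 in Huh7. In each of these the ATO profile was the dimmer one in Hep3B and the brighter one in Huh7. The second probe set of BHLHE40 had the same directions, at 0.221 and 1.66, though its Hep3B value with ATO was dim, as had that of HILPDA, at 0.774 and 1.22.

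CA12, a carbonic anhydrase of the cell surface, was the member with the largest ratio in Huh7. Its intensity was 143 with ATO and 32.6 in NC in Huh7, and 237 with ATO and 188 in NC in Hep3B, with ratios of 4.38 and 1.26. The Huh7 NC profile stood well below the other 3. The brightest probe set can bind related transcripts, as its name ending in _x_at marks, and a second such set gave 4.13 in Huh7. The other 4 above the median lack that ending and gave 9.10, 6.43, 0.798 and 1.26 in Huh7, the first 2 from dim NC values of 5.30 and 5.27. KDM3A, a histone demethylase, was at 0.712 in Hep3B and 0.795 in Huh7. The mitophagy receptors BNIP3, at 0.778 and 0.871, and BNIP3L, at 0.776 and 0.888, were also below 1 in both lines. These 3 were within the thresholds in each line. The second probe set of BNIP3 was at 1.02 in Hep3B and 0.792 in Huh7, so its direction in Hep3B rests on the probe set.

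**Figure D3:**
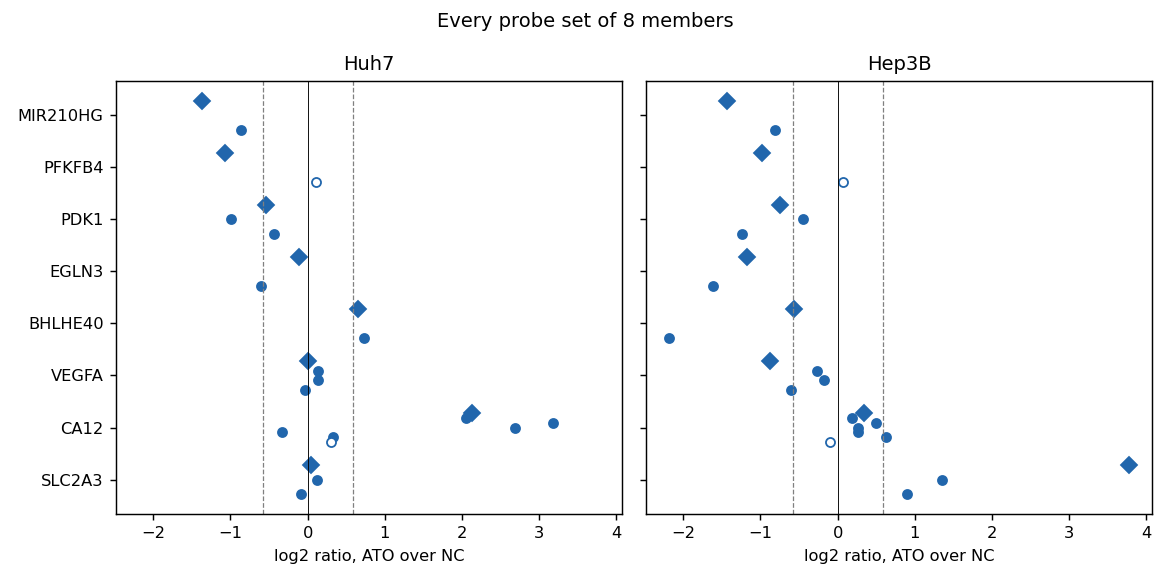
Log2 ratio of ATO over NC (x axis) for every probe set of 8 members, in Huh7 (left) and Hep3B (right), with diamonds for the brightest probe set of a gene, circles for its others and open symbols for those with a mean dimmer than the median. Dashed lines mark ratios of 1.5 and 0.67, both probe sets of MIR210HG and EGLN3 and all 3 of PDK1 lie left of 0 in both panels, and those of BHLHE40 change side.

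The comparison of glycolytic enzymes with hypoxia-only genes gave a gap between the groups in Hep3B and hardly any in Huh7. In Hep3B the median log2 ratio was -0.05 for the enzymes and -0.56 for the hypoxia-only genes, a difference of 0.51. In Huh7 the medians were -0.12 and -0.09, a difference of -0.03. Enzyme ratios ran from 0.718 to 1.12 in Hep3B and from 0.507 to 1.38 in Huh7, while hypoxia-only ratios ran from 0.320 to 1.26 and from 0.389 to 4.38. Carriers and flux regulators had medians of 0.06 in Hep3B and -0.41 in Huh7. The gap in Hep3B was 0.25 with the geometric mean of the probe sets of each gene. These medians are descriptions, as the genes of a list are not replicates.

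**Figure D4:**
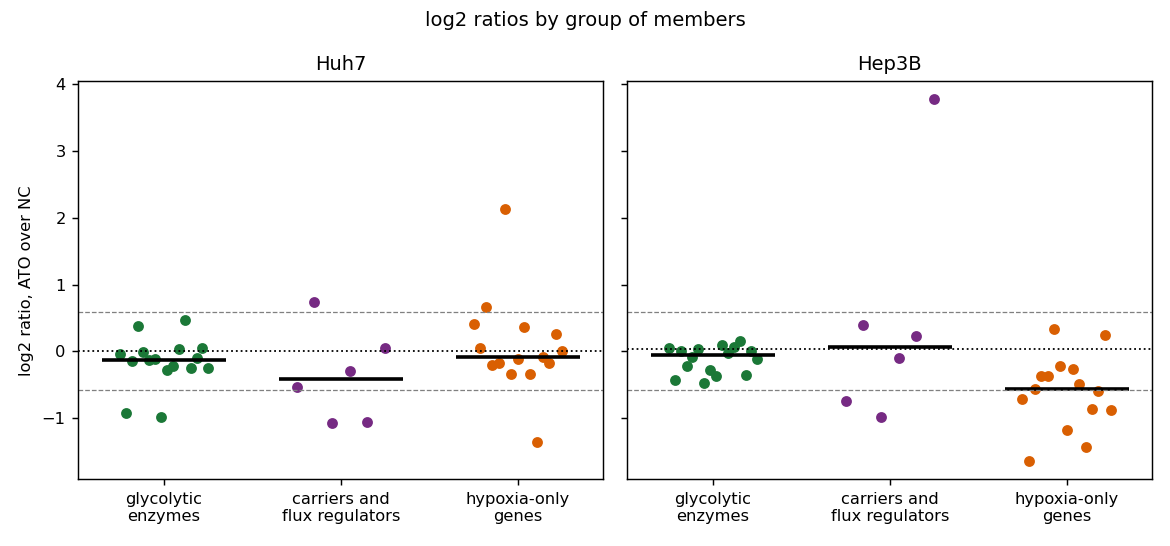
Log2 ratio of ATO over NC (y axis) of the members by group in Huh7 (left) and Hep3B (right), 1 point per gene, with a bar for the median of each group. The dotted line is the median of all genes, 0.01 in Huh7 and 0.04 in Hep3B, dashed lines mark ratios of 1.5 and 0.67, and the bar of the hypoxia-only genes is at -0.56 in Hep3B and at -0.09 in Huh7.

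Many of these genes stood at different levels in the 2 lines, in ATO-treated and NC cells alike. From limma, 25 of the 37 members had an adjusted p under 0.05 between Huh7 and Hep3B, beside 24.3% of all genes. Of these 25, 19 were higher and 6 lower in Huh7, where 2403 and 2403 of all 19775 genes were. In this comparison the ATO and NC profiles of a line stood in as its replicates. These p-values rest on how alike the line difference was with ATO and in NC, and not on replicates of either condition. With an offset of 64 in place of 16, 14 members passed, and the share of all genes at 64 was not counted. HK1 had 796 with ATO and 862 in NC in Huh7, against 24.7 with ATO and 34.4 in NC in Hep3B, while HK2 had the higher level in Hep3B, as given above. The limma estimate, Huh7 over Hep3B, was 4.22 ± 0.08 (SE, adjusted p = 0.0105) for HK1 and -2.15 ± 0.19 (adjusted p = 0.0205) for HK2. PFKP had 2212 with ATO and 1603 in NC in Huh7, against 25.9 with ATO and 24.8 in NC in Hep3B. SLC2A3 was also higher in Huh7 (5.87 ± 0.73 SE, limma adjusted p = 0.0309). ALDOC and ENO2 were lower in Huh7, by limma estimates of -1.89 ± 0.10 (adjusted p = 0.0129) and -1.94 ± 0.12 (adjusted p = 0.0155). The Huh7 values of ENO2 and the NC Hep3B value of SLC2A3 were dim, so these differences have no firm size. In each of these genes the pair of profiles of one line did not overlap with the pair of the other. With line differences this large that follows and adds nothing to the estimates, and the share of all genes without overlap was not counted. MIR210HG, at an estimate of 1.14 ± 0.07 (limma adjusted p = 0.0146), and PFKFB4, at 0.96 ± 0.07 (limma adjusted p = 0.0181), were higher in Huh7 too. VEGFA was brighter in Hep3B, but not past the threshold (-0.96 ± 0.26, limma adjusted p = 0.113).

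Transcripts of HIF1A, EPAS1 and ARNT were within the thresholds in both lines. HIF1A, the oxygen-labile subunit found in most cells, had 1544 with ATO and 1349.6 in NC in Huh7, and 1833 with ATO and 1803 in NC in Hep3B, with ratios of 1.14 and 1.02. EPAS1, the alpha subunit also called HIF-2 alpha, had 2868 with ATO and 1936 in NC in Huh7, and 1733 with ATO and 1963 in NC in Hep3B, with ratios of 1.48 and 0.883. ARNT was at 0.821 and 0.988. Of 14 HIF subunits, oxygen sensors and cofactors, 1 was above 1.5 in Huh7, beside 3.21% of all genes, and 2 were below 0.67 in Hep3B, beside 4.02%. These 2 were the paralogous coactivators EP300, at 0.520, and CREBBP, at 0.530, in Hep3B, while VHL was at 1.62 in Huh7 and 0.967 in Hep3B. Other probe sets above the median gave 0.832 for EP300 and 1.17 for CREBBP in Hep3B, so each call rests on 1 probe set. The 3 were named after their values were seen, and transcript levels do not show how much HIF protein was present.

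Other targets of HIF were found on both sides. Of 32 measured, 2 were above 1.5 in both lines, beside 0.804% of all genes, and 2 below 0.67 in both, beside 0.587%. Their log2 ratios had a median of -0.13 in Huh7 and -0.14 in Hep3B. Those below were PLOD2, a collagen lysyl hydroxylase, and CITED2, which competes with HIF for its coactivators. PLOD2 had 633 with ATO and 953 in NC in Huh7, and 939 with ATO and 2334 in NC in Hep3B, with ratios of 0.663 and 0.403. Its second probe set gave 0.781 and 0.482, so the call in Huh7 rests on the brightest. CITED2 had 259 with ATO and 398 in NC in Huh7, and 35.7 with ATO and 147 in NC in Hep3B, with ratios of 0.651 and 0.243. Those above were STC2, a secreted glycoprotein that is also a target of the stress factor ATF4, at 1.61 and 3.91, and LOXL2, a collagen crosslinking enzyme, at 4.40 and 2.89. In each line alone, 7 of the 32 were below 0.67 in Huh7 and 11 in Hep3B, and 3 and 4 were above 1.5. Over all genes the shares were 3.25% and 4.02% below, and 3.21% and 5.04% above. EPO, the hormone of red cell formation for which Hep3B is a classic hypoxia model, was named after its values were seen. It had 19.3 with ATO and 59.9 in NC in Hep3B, a ratio of 0.322, and was dimmer than the median in both Huh7 profiles. Its other probe set gave 0.904 in Hep3B, from values of 18.9 with ATO and 20.9 in NC.

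Among 23 other genes of glycolysis and pyruvate use, 1 was above 1.5 in both lines, beside 0.804% of all genes, and none was below 0.67 in both, beside 0.587%. HKDC1, a hexokinase-like enzyme, had 359 with ATO and 221 in NC in Huh7, and 783 with ATO and 189 in NC in Hep3B, with ratios of 1.63 and 4.14. The ATO profile was thus the brighter one in both lines. The median ratio of the list was 1.01 in Huh7 and 0.998 in Hep3B, and 2 and 3 of the 23 were above 1.5 while 0 and 1 were below 0.67. Over all genes 3.21% and 5.04% were above, and 3.25% and 4.02% below.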

How the data were processed

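The authors hybridized RNA of the 4 cell cultures to Affymetrix Human Genome U133 Plus 2.0 arrays. Per their methods, the authors preprocessed the scans with RMA (Robust Multi-array Average), took logs and normalized by quartiles with the package simpleaffy. The deposited values are intensities on a linear scale, from 2.24 to 14163.5, with medians between 15.8 and 16.3. The return to that scale, and whether a column is 1 array, are not given in the sources used here. Of 54675 probe sets, 41097 had 1 gene symbol in the platform annotation, 1801 several and 11777 none. Each of 19775 genes was read from the brightest probe set with 1 symbol.

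Ratios of ATO over NC were taken within each line, where the labels give the pairing by cell line, and set against the thresholds of 1.5 and 0.67. The model in limma 3.58.1 (R 4.3.3) held treatment and cell line on log2(intensity + 16) over all genes, with Benjamini-Hochberg adjustment at 0.05. It left 1 residual degree of freedom, and its prior had 1.81. The steps were tested on simulated data in which ATO changed both lines alike. That test does not show how limma performs where the lines differ in their response. No detection call was used, so a value counted as dim when under 17.3, the median of the probe set means. The number of arrays limits the precision. The members and lists were chosen with earlier results of these data known. All measured members are given. From the other lists, genes past the same threshold in both lines are named, with HIF1A, EPAS1 and ARNT. Alternatives covered the probe set rule, normalization, thresholds, dim values, offset, prior and block. Protein, flow cytometry and animal data were not analysed here.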

Additional observations from a re-analysis of the deposited data

Results flagged for a closer look

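Of the 37 measured members, 13 had opposite directions in the 2 lines. Over all 19775 genes, 8556 were neither above 1 in both lines nor below 1 in both. Of the 13 members, 3 differed from their NC by more than 1.2 times in both lines, HILPDA barely so, at 1.201 times lower in Hep3B. The share of all genes that did so was not counted, so the 3 cannot be set against it. ADM was at 1.32 in Huh7 and 0.609 in Hep3B, BHLHE40 at 1.58 and 0.679, and HILPDA at 1.28 and 0.833. With 1 profile per condition and line, the difference between the lines was not tested.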

How the results depend on the processing

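The counts of members past the thresholds in each line stayed within 1.5 times under the probe set and normalization alternatives. Of 368 ratios of single members recomputed under those alternatives, 360 stayed on the same side of the thresholds, 5 returned within them and 3 passed one. The direction turned in 11 of the 368, none of them past a threshold as reported, 6 with the geometric mean of probe sets, 4 with median centring and 1 with quantile normalization. All 5 of those that returned, HK2 in Huh7, P4HA1 and VEGFA in Hep3B and PFKFB4 in both lines, did so with the geometric mean of probe sets, and PDK1 in Huh7 and BHLHE40 in Hep3B passed 0.67 with it. BHLHE40 in Hep3B was at 0.669 with each array centred on its median. With thresholds of 1.2 and its inverse, 2 members were higher and 7 lower in both lines, where 5.40% and 4.39% of all genes were. With thresholds of 2 and 0.5, 0 were higher and 1, MIR210HG, was lower in both, where 0.202% and 0.0759% of all genes were. The members' median log2 ratio was -0.20 over both lines, and between -0.26 and -0.12 when 1 line was left out. No member had an adjusted p under 0.05 for ATO from limma under any alternative run, including no replicate block. Over all genes 9 passed with an intensity trend in the prior and 3 with dim genes left out. The adjusted p of MIR210HG ranged from 0.0923 to 0.99997 over these fits. Between the lines, 14 members passed with an offset of 64, against 25, and the share of all genes at 64 was not counted. One profile per condition and line leaves each ratio without a replicate check, and dim values, such as SLC2A3 in NC Hep3B cells, have no firm ratio.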
